A study of Mus musculus with 6 samples.

Results

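The 9 genes Ly6a, Msln, Clu, Spp1, Il33, Anxa1, Anxa3, Ctgf and Cyr61 are widely used markers of the fetal-like, regenerating state of the intestinal epithelium and of the transcription co-activator YAP. They were chosen by name as rows of the deposited expression table, 9 of 36172 genes. The rule used no measured value, but earlier results of these data were known when the genes were chosen. Expression was measured by RNA sequencing in 6 libraries of organoids, cultures of tumor epithelial cells grown in a gel, from intestinal tumors of C57BL/6 mice aged 15 to 20 weeks. Every group carried the Apc Δ716 truncation with loss of the second Apc allele, so wild-type intestine was not among the samples. The groups differed in Trp53, with 2 libraries each, from organoids of a different mouse. Apc Δ716 Trp53 +/+ organoids, labelled p53(+/+), had normal p53. Apc Δ716 Trp53 flox/flox organoids, labelled p53(flox/flox), carried on both alleles an LSL•R270H construct that is null until Cre recombines it. Apc Δ716 Trp53 R270H/R270H organoids, labelled p53(M/M), came from such mice after tamoxifen had activated Cre driven by the epithelial villin promoter, so that both alleles expressed the missense protein p53 R270H. Tamoxifen treatment of the Trp53 +/+ mice is not given in the sources used here, and its part in a difference cannot be told apart from that of p53 R270H.

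YAP and its paralog TAZ are held in the cytoplasm by the Hippo kinases, and when released they enter the nucleus and switch on target genes through the TEAD DNA-binding proteins. After injury, and in the fetal gut, intestinal epithelial cells can lose the Lgr5+ crypt stem cell program and express genes such as Ly6a (Sca-1), Anxa1 and Clu, and this state depends on YAP. Ctgf and Cyr61 (also named Ccn2 and Ccn1) are the standard readouts of YAP with TEAD in many cell types.

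Promoter sequence, taken from RefSeq (GRCm38.p6), was at hand for 4 of the 9 genes, in 6 windows of 250 bases that end at a transcription start. They were searched on both strands for CATTCC, the core that TEAD proteins bind, and for TGANTCA, the site of AP-1, which often acts beside TEAD. CATTCC was found in 4 of the 6 windows, which belong to Anxa1, Il33 and Cyr61, against 12.6% of 32851 windows of the same length over all genes. TGANTCA was found in 0 of the 6 windows, against 6.75%. The windows of Cyr61 (chr3:145649986-145650235, minus strand), Anxa1 (chr19:20390672-20390921, minus strand) and Il33 (chr19:29924863-29925112, plus strand) are shown because they hold the TEAD core, and that of Spp1 (chr5:104434861-104435110, plus strand) because it does not. Each is written 5′ to 3′ along the gene, and capitals mark the TEAD core.
Cyr61: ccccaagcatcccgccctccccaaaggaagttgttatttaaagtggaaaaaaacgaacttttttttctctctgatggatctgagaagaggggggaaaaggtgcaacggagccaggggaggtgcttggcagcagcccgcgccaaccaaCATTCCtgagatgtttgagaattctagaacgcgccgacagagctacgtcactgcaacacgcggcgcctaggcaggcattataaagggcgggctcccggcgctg
Anxa1: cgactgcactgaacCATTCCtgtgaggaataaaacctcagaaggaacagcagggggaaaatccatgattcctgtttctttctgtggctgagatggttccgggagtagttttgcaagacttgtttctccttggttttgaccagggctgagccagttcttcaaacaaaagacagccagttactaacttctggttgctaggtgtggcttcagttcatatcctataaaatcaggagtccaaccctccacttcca
Il33: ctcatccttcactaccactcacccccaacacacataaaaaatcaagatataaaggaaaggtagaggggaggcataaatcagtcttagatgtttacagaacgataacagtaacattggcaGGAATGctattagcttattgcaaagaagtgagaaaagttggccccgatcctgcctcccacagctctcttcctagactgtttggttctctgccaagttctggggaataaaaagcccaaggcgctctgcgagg
Spp1: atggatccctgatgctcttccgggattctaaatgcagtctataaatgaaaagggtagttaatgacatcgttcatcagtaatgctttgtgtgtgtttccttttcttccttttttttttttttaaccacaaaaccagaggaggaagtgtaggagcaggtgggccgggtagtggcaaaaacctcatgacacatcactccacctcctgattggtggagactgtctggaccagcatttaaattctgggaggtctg
The core began 103 bases before the start in Cyr61, 236 bases in Anxa1 and 131 bases in Il33, where it lay on the opposite strand and reads GGAATG. A match of 6 letters describes the sequence only, and binding was not measured.

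Values are rpkm, the reads mapped to a gene, scaled by its length and by all mapped reads of the library, so levels can be compared between genes. The table holds no read counts and no value below 1 rpkm, and genes listed at 1 are called at the floor here. In the sums of markers given below, each gene at the floor adds 1 rpkm. A sum near the number of markers in its list is therefore mostly floor. The level of Trp53 itself was 75.9 and 74.3 rpkm in the Trp53 +/+ libraries, 1.73 and 2.48 rpkm in the Trp53 flox/flox libraries and 72.8 and 82.7 rpkm in the Trp53 R270H/R270H libraries, so the flox/flox libraries held little of it, as labelled. The replicates were not equally close. Across 10042 genes, which are not independent replicates, Pearson's r of log2 values within a pair was 0.996 for Trp53 +/+, 0.993 for Trp53 R270H/R270H and 0.932 for Trp53 flox/flox. All 7 epithelial markers, such as Epcam and Vil1, were expressed in every library, with sums from 2222 to 4268 rpkm. Of the immune markers, 6 of 7, Ptprc among them, were at the floor in all libraries. Of the 8 fibroblast markers, Col1a2, Col3a1 and Lum were at the floor in all libraries, and of the 4 endothelial markers Pecam1 and Kdr were. In Trp53 flox/flox replicate 2, Acta2, a smooth muscle actin gene, reached 11.5 rpkm and Tek, an endothelial receptor gene, 21.4 rpkm, and in the Trp53 +/+ libraries the endothelial cadherin gene Cdh5 stood at 8.88 and 9.35 rpkm.

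To ask how the markers of the regenerating state differ between the Trp53 genotypes, log2(rpkm+1) was compared with limma in 1 fit over all 6 libraries. The genes compared were the 10042 that reached 4 rpkm in 1 library or more, p-values were two-sided and adjusted over these genes by the Benjamini-Hochberg method, and a gene was called at an adjusted p under 0.05. All 9 markers passed this filter, Spp1 only through the Trp53 +/+ libraries and 1 Trp53 flox/flox library. Of the other genes called below, Cdh5, Upk1b, Upk3b, Lypd6b, Olfm4 and Ankrd1 passed it only through the genotype where they were highest. Their calls are thus not independent of the filter. With 2 libraries per genotype an exact permutation test of a single gene cannot go below p = 0.333, so the calls rest on the spread that limma pools across genes.

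Ly6a, Msln, Anxa1 and Anxa3 fell in Trp53 R270H/R270H organoids when set against Trp53 +/+, by 1.93-fold for Anxa1 to 4.73-fold for Ly6a, and the same 4 genes with Ctgf and Cyr61 were lower than in Trp53 flox/flox organoids. Il33 did not follow this pattern, and the highest Clu and Spp1 levels were in a single Trp53 flox/flox library. In bulk RNA, fewer cells expressing a gene and less RNA per cell cannot be told apart.

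**Figure D1:**
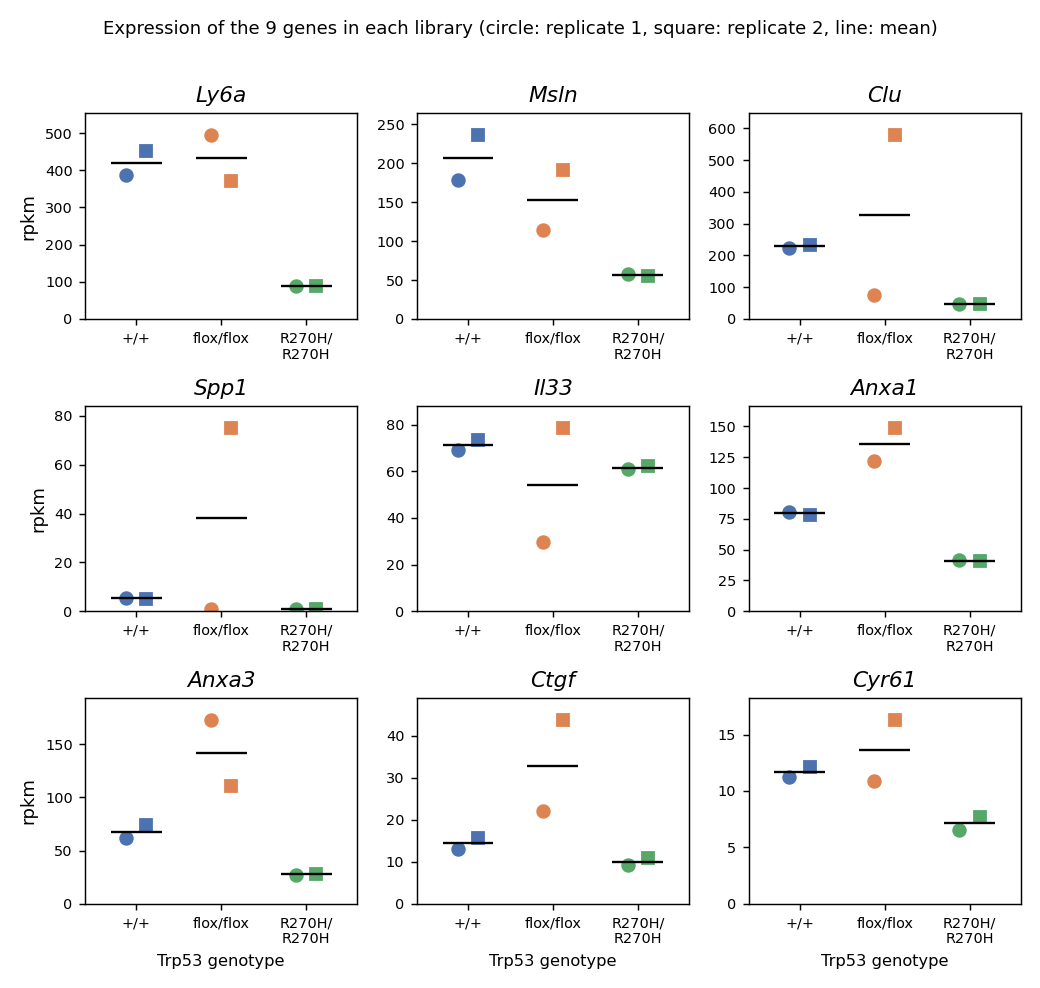
Expression of the 9 genes in rpkm (vertical axis, from 0, scaled per gene) in the 6 libraries by Trp53 genotype (horizontal axis). Circles are replicate 1, squares replicate 2 and lines the mean of the 2. Both R270H/R270H libraries lie below the other 4 for 7 genes, and the 2 flox/flox libraries are far apart for Clu and Spp1.

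Ly6a encodes Sca-1, a small GPI-anchored surface protein that marks regenerating and fetal-like epithelium (chr15:74994877-74998031). It was the most abundant of the 9 genes in Trp53 +/+ organoids, at 388 and 452 rpkm, above 98.9% of the genes compared. Its level was 494 and 370.5 rpkm in the Trp53 flox/flox libraries and 88.1 and 89.7 rpkm in the Trp53 R270H/R270H libraries. The first 4 values overlapped between their genotypes, and the last 2 lay well below all of them. The R270H/R270H mean of 88.9 ± 1.14 rpkm (s.d., n = 2) was 4.73-fold lower than the +/+ mean of 420.2 ± 45.4 rpkm, a log2 change of -2.22 (s.e. 0.17, limma adjusted p = 0.00434). Only 71 of the 10042 genes had a more negative change. Against flox/flox the change was -2.25 (s.e. 0.17, limma adjusted p = 0.00312), while flox/flox differed from +/+ by 0.03 on the log2 scale (s.e. 0.17, limma adjusted p = 0.918).

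Msln encodes mesothelin, another GPI-anchored protein, which is made by mesothelium and by regenerating gut epithelium (chr17:25748613-25754378). Its level was 179 and 236 rpkm in Trp53 +/+, 114 and 191 rpkm in Trp53 flox/flox and 57.2 and 55.6 rpkm in Trp53 R270H/R270H libraries. The R270H/R270H libraries were again the lowest pair, and the other genotypes overlapped. The log2 change was -1.85 against +/+ (s.e. 0.28, limma adjusted p = 0.0194), or 3.67-fold, and -1.37 against flox/flox (s.e. 0.28, limma adjusted p = 0.0265). The latter call was lost when each genotype had its own spread (limma adjusted p = 0.113 with weights for each genotype). The mesothelial transcription factor Wt1 and the mesothelial gene Lrrn4 were at the floor in all 6 libraries, while 2 uroplakin genes of mesothelium were above it. Upk1b was at 3.07 and 4.09 rpkm in +/+, 1.39 and 1 rpkm in flox/flox and 1 and 1 rpkm in R270H/R270H libraries, and was called lower in R270H/R270H against +/+ (-1.19, s.e. 0.19, limma adjusted p = 0.0239). Upk3b was at 4.5 and 4.9 rpkm, 1 and 1.64 rpkm, and 3.23 and 3.59 rpkm, in the same order. It was called lower in flox/flox against +/+ (-1.31, s.e. 0.18, limma adjusted p = 0.0215). In R270H/R270H against flox/flox, where Msln was lower, Upk3b was called higher (0.94, s.e. 0.18, limma adjusted p = 0.0249). Both calls of Upk3b were lost with weights for each genotype (limma adjusted p = 0.0825 and 0.111). The 4 mesothelial markers summed to 9.57 and 11 rpkm in +/+, 4.39 and 4.64 rpkm in flox/flox and 6.23 and 6.59 rpkm in R270H/R270H libraries, and the part of such cells in the Msln values was not tested.

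Anxa1 and Anxa3 encode annexins, proteins that bind membrane phospholipids in the presence of calcium, and Anxa1 also acts as a pro-resolving ligand of formyl peptide receptors. Anxa1 (chr19:20373434-20390671) stood at 80.8 and 78.1 rpkm in Trp53 +/+, 122 and 149 rpkm in Trp53 flox/flox and 41.4 and 40.9 rpkm in Trp53 R270H/R270H libraries. Anxa3 (chr5:96793385-96845968) stood at 61.5 and 73.8 rpkm, 173 and 111 rpkm, and 26.8 and 28.3 rpkm, in the same order. For both genes the 3 genotypes did not overlap, and flox/flox was highest and R270H/R270H lowest. Against +/+, R270H/R270H was lower by log2 changes of -0.93 for Anxa1 (s.e. 0.13, limma adjusted p = 0.0156) and -1.26 for Anxa3 (s.e. 0.23, limma adjusted p = 0.0305). Against flox/flox, the log2 changes were -1.69 (s.e. 0.13, limma adjusted p = 0.00288) and -2.29 (s.e. 0.23, limma adjusted p = 0.00561). Anxa1 rose in flox/flox against +/+ by 0.76 on the log2 scale (s.e. 0.13, limma adjusted p = 0.0292). The corresponding log2 change of Anxa3 was 1.03 (s.e. 0.23), and its limma adjusted p of 0.05 just missed the threshold. With weights for each genotype the call of Anxa1 in flox/flox was lost (limma adjusted p = 0.0856). Anxa3 lies on chromosome 5, where the median gene of flox/flox replicate 1 stood 0.29 above the +/+ mean on the log2 scale, against -0.04 for all genes and 0.01 for chromosome 5 in replicate 2. In this replicate Anxa3 was 1.34 above the +/+ mean, and in replicate 2 it was 0.72 above. The part of the chromosome in the difference was not tested.

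Ctgf and Cyr61 encode secreted CCN matricellular proteins and are direct targets of YAP with TEAD. Ctgf (chr10:24595442-24598683) was at 13.0 and 15.7 rpkm in Trp53 +/+, 22.0 and 43.8 rpkm in Trp53 flox/flox and 9.28 and 10.8 rpkm in Trp53 R270H/R270H libraries. Cyr61 (chr3:145646971-145649985), whose promoter with the TEAD core is printed above, was at 11.2 and 12.1 rpkm, 10.9 and 16.3 rpkm, and 6.58 and 7.7 rpkm, in the same order. Both genes had their lowest values in the R270H/R270H libraries, and flox/flox lay above +/+ in both libraries for Ctgf but overlapped with it for Cyr61. They were the least abundant of the markers apart from Spp1. Against flox/flox, Ctgf was lower by a log2 change of -1.54 (s.e. 0.33, limma adjusted p = 0.0297) and Cyr61 by -0.82 (s.e. 0.2, limma adjusted p = 0.042). Both calls were lost with weights for each genotype (limma adjusted p = 0.0643 for Ctgf and 0.122 for Cyr61). Against +/+, their log2 changes of -0.48 (s.e. 0.33, limma adjusted p = 0.375) and -0.64 (s.e. 0.2, limma adjusted p = 0.104) did not pass the test. With weights for each genotype both did pass (limma adjusted p = 0.0116 and 0.00072). For flox/flox against +/+ the log2 changes were 1.07 for Ctgf (s.e. 0.33, limma adjusted p = 0.0927) and 0.18 for Cyr61 (s.e. 0.2, limma adjusted p = 0.553).

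Clu encodes clusterin, a secreted chaperone that marks the revival stem cells of the damaged gut (chr14:65968483-65981548). Its level was 223 and 234 rpkm in Trp53 +/+, 76.3 and 578 rpkm in Trp53 flox/flox and 47.4 and 46.4 rpkm in Trp53 R270H/R270H libraries. The R270H/R270H libraries were the lowest, 4.88-fold below +/+, and the +/+ libraries agreed within 1.05-fold. Between the flox/flox libraries, however, Clu differed 7.57-fold, and only 95 of the 10042 genes differed more. The log2 change of R270H/R270H against +/+ was -2.26, below that of Ly6a, but its standard error was 0.9 (limma adjusted p = 0.16). With weights for each genotype it passed (limma adjusted p = 6.3e-05). Against flox/flox the log2 change was -2.14 (s.e. 0.9, limma adjusted p = 0.134). The log2 change of flox/flox against +/+ was -0.12 (s.e. 0.9, limma adjusted p = 0.937) and had no stable sign, since it was 1.33 without flox/flox replicate 1 and -1.57 without replicate 2.

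Spp1 encodes osteopontin, a secreted phosphoprotein that binds integrins and CD44 (chr5:104435111-104441053). It was at 5.41 and 5.16 rpkm in Trp53 +/+, at the floor of 1 and at 75.2 rpkm in Trp53 flox/flox, and at 1.15 rpkm and the floor in Trp53 R270H/R270H libraries. A single flox/flox library thus held by far the highest level, and the other was as low as the R270H/R270H libraries. The gap between the flox/flox libraries, at least 75.2-fold because of the floor, was exceeded by 1 gene of the 10042. No comparison passed the test, with log2 changes of -1.6 for R270H/R270H against +/+ (s.e. 1.63, limma adjusted p = 0.551), 0.97 for flox/flox against +/+ (s.e. 1.63, limma adjusted p = 0.686) and -2.57 for R270H/R270H against flox/flox (s.e. 1.63, limma adjusted p = 0.273). With weights for each genotype the first did pass (limma adjusted p = 0.00416). The library with the high Spp1 was the one with the high Acta2 and Tek, where the fibroblast markers summed to 20.6 rpkm against 8 to 8.59 rpkm in the others and the endothelial markers to 26.7 rpkm against 4 to 15.3 rpkm. The immune markers summed to 17.1 rpkm there and to 15.9 and 16.2 rpkm in the +/+ libraries, and all that exceeded the floor was Cd68, a lysosomal gene of macrophages. The part of such cells in the Clu and Spp1 values was not tested.

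Il33 encodes an alarmin of the interleukin-1 family that is kept in the nucleus and released by damaged epithelium (chr19:29925113-29960718). It was at 69.3 and 73.3 rpkm in Trp53 +/+, 29.9 and 78.7 rpkm in Trp53 flox/flox and 60.9 and 62.1 rpkm in Trp53 R270H/R270H libraries. The R270H/R270H libraries lay between the 2 flox/flox libraries, which differed 2.63-fold. The log2 changes were -0.21 for R270H/R270H against +/+ (s.e. 0.43, limma adjusted p = 0.78), -0.54 for flox/flox against +/+ (s.e. 0.43, limma adjusted p = 0.4) and 0.33 for R270H/R270H against flox/flox (s.e. 0.43, limma adjusted p = 0.576). Of the 9 genes, it was the one with the smallest change of the R270H/R270H organoids in the first and the last of these comparisons.

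**Figure D2:**
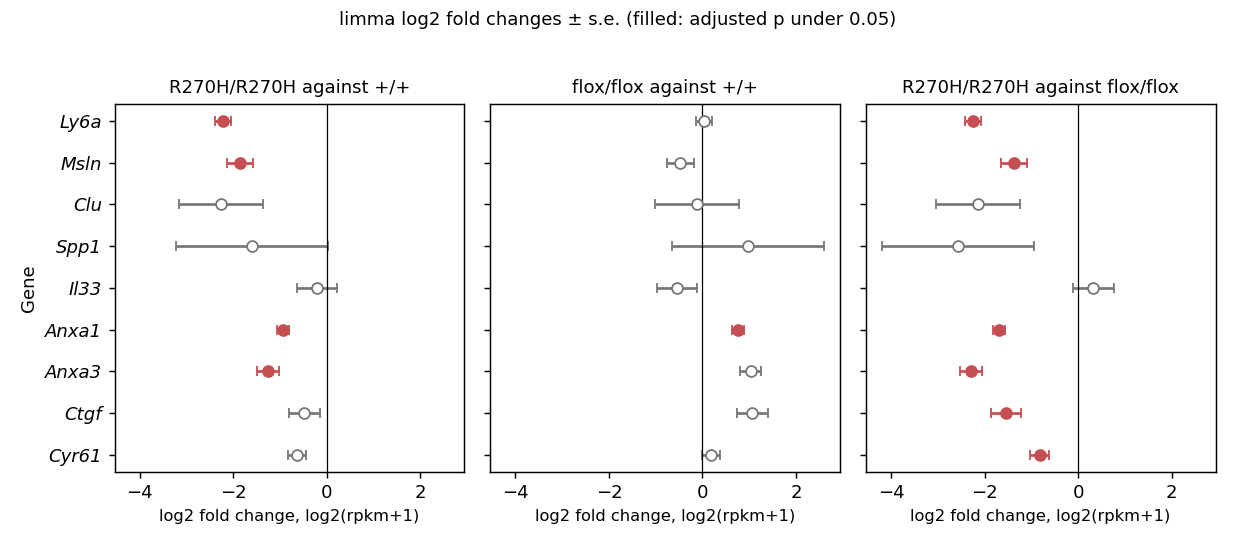
Log2 fold changes (horizontal axis, on the log2(rpkm+1) scale) of the 9 genes (vertical axis) in the 3 comparisons of Trp53 genotypes. Points are limma estimates, bars 1 standard error, and filled red points have an adjusted p under 0.05. The 4, 1 and 6 filled points are Ly6a, Msln, Anxa1 and Anxa3, then Anxa1 alone, then Ly6a, Msln, Anxa1, Anxa3, Ctgf and Cyr61.

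Counted over the 9 genes, R270H/R270H against +/+ called 4 lower and 0 higher, and 0 were higher at an unadjusted p under 0.05. Of all genes compared, limma called 6.36% lower and 5.86% higher. All 9 log2 changes were negative, with a median of -1.26 against 0.03 for all genes. The means of Ly6a, Clu, Anxa3, Spp1 and Msln in R270H/R270H were at least 2-fold below those in +/+, which held for 6.09% of all genes. Spp1 passed the filter only through the other genotypes, so its part in these counts is not independent of the filter. R270H/R270H against flox/flox called 6 lower and 0 higher, and 0 were higher at an unadjusted p under 0.05. Of all genes, 11% were called lower and 13.6% higher, and the median log2 change was -1.69 against 0.03. Flox/flox against +/+ called 1 higher, against 4.38% of all genes, and 0 lower, against 6.9%, and 0 were lower at an unadjusted p under 0.05. The median log2 change there was 0.18 against -0.02 for all genes, and 6 changes were positive and 3 negative. The comparisons share libraries, so their counts are not independent. Some markers of cell types moved with the 9 genes. The endothelial gene Cdh5 was at 1.04 and 1 rpkm in the R270H/R270H libraries and was called lower than in +/+ (-2.32, s.e. 0.36, limma adjusted p = 0.0224), and the summed endothelial markers were 4.2 and 4.13 rpkm there against 14.9 and 15.3 rpkm. Cd68 was at 10.2 and 9.87 rpkm in +/+ and 2.22 and 2.41 rpkm in R270H/R270H libraries, a log2 change of -1.74 (s.e. 0.62, limma adjusted p = 0.13). Of the epithelial markers, Krt19 was called lower in R270H/R270H against +/+ (-0.78, s.e. 0.17, limma adjusted p = 0.0469). Against flox/flox all 7 epithelial log2 changes were negative, with a median of -0.71. Called lower there were Krt8 (-0.93, s.e. 0.12, limma adjusted p = 0.0112), Krt18 (-0.8, s.e. 0.14, limma adjusted p = 0.0192) and Krt19 (-1.62, s.e. 0.17, limma adjusted p = 0.00657), and with weights for each genotype Krt19 alone was. The part of these markers' cells in the differences was not tested. Both R270H/R270H libraries lay below the other 4 for 7 of the 9 genes, all but Spp1 and Il33, and this held for 18.7% of all genes. Both flox/flox libraries lay above the other 4 for Anxa1, Anxa3 and Ctgf, and this held for 19.9%.

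The number of calls depended on how the uneven spread was handled. The sign of R270H/R270H against +/+ was the same in every setting tried. Only other pseudocounts, the scalings and leaving out a library of these genotypes could change that estimate. With weights for each genotype 8 of the 9 genes were called lower in R270H/R270H against +/+, all but Il33. The same weights called much of other lists in this comparison, counted in either direction. They called 57.1% of the 7 epithelial markers and, of lists described below, 65.2% of 23 Hippo pathway genes and 69.2% of 13 crypt base genes. Many calls under weights were thus not particular to the 9 genes. Calls over all genes moved too. The main fit called 639 of 10042 genes lower and 588 higher. Over the alternatives that kept all libraries, this ranged from 163 to 2787 lower and from 255 to 3200 higher. Counts from other settings are thus not to be set against the 6.36% called lower in the main fit. Without flox/flox replicate 1 or without flox/flox replicate 2, limma called 9 lower. Without Trp53 +/+ replicate 1 or 2, or without R270H/R270H replicate 1 or 2, limma called 0, with 4 at an unadjusted p under 0.05 each time, and the lone library of a genotype was then assumed to vary like the others. The limma adjusted p of Ly6a in these 4 fits was between 0.0674 and 0.0754.

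**Figure D3:**
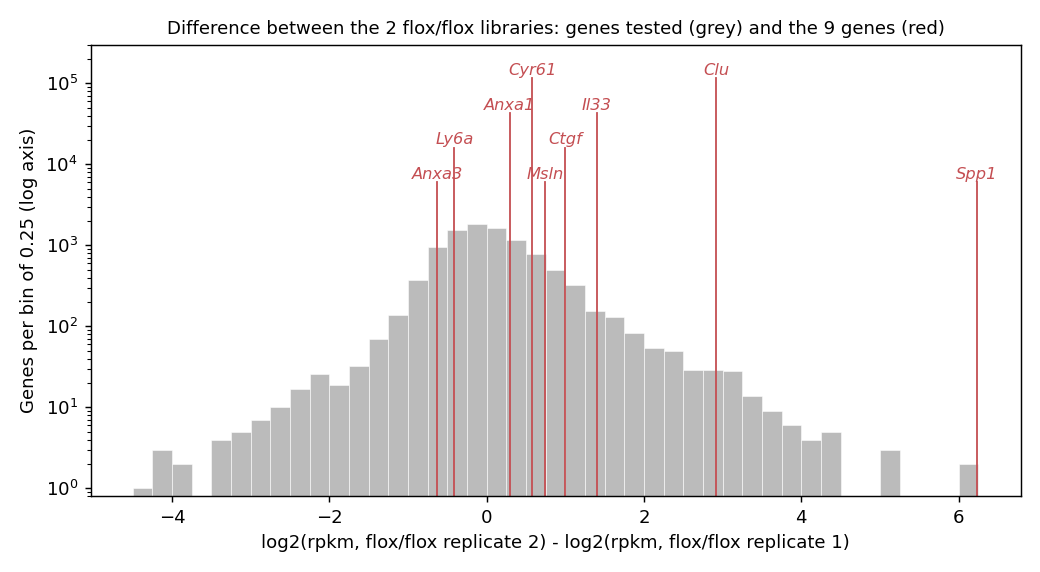
Difference between the 2 Trp53 flox/flox libraries on the log2 scale (horizontal axis) for the 10042 genes compared (grey bars, number of genes per bin on a log axis) and for the 9 genes (red lines, whose height has no meaning). Spp1 at 6.23 and Clu at 2.92 lie at the far right of the distribution, and Anxa1 at 0.29 lies near its centre.

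The flox/flox libraries were at least 2-fold apart for Clu, Spp1 and Il33, 3 of the 9 genes, and for 12.6% of all genes compared. In the +/+ and R270H/R270H pairs the backgrounds were 0.0996% and 0.259%. For Clu, Spp1 and Il33 replicate 2 was the higher library, as for 9.22% of all genes at this size of difference. Ctgf was also higher in replicate 2, by 1.99-fold, whereas Ly6a and Anxa3 were higher in replicate 1.

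For the lists that follow, limma called 12.2% of all genes in either direction in R270H/R270H against +/+, 11.3% in flox/flox against +/+ and 24.6% in R270H/R270H against flox/flox. Other fetal-type or regeneration genes were a list of 19, of which 17 passed the filter. R270H/R270H against +/+ called 4 lower and 0 higher, and 0 were higher at an unadjusted p under 0.05. The median log2 change was -0.4. The 4 were the EGF receptor ligand Areg, the interleukin-1 receptor antagonist Il1rn, the surface protein gene Ly6d and the urokinase receptor gene Plaur. Areg was at 57.3 and 60.1 rpkm in +/+, 29.2 and 30.9 rpkm in flox/flox and 9.33 and 10.4 rpkm in R270H/R270H libraries, without overlap between the genotypes. It changed by -2.46 on the log2 scale in R270H/R270H against +/+ (s.e. 0.1, limma adjusted p = 0.00303). Il1rn changed by -2.3 (s.e. 0.26, limma adjusted p = 0.00989), Ly6d by -1.53 (s.e. 0.29, limma adjusted p = 0.0335) and Plaur by -0.95 (s.e. 0.14, limma adjusted p = 0.0178). Against flox/flox 9 were called lower and 0 higher, with 0 higher at an unadjusted p under 0.05 and a median of -1.04, and with weights for each genotype 5 were called.

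The same list was split in flox/flox against +/+, with 4 called higher and 3 lower and a median log2 change of 0.52. Weighted by genotype, limma called 0 of them, with 10 at an unadjusted p under 0.05, so the calls named here rest on the common spread. Krt7, a simple-epithelial keratin gene, rose by 1.22 (s.e. 0.13, limma adjusted p = 0.0132), from 282 and 312 rpkm to 646 and 741 rpkm. Areg fell by 0.94 on the log2 scale (s.e. 0.1, limma adjusted p = 0.0132), Ly6d by 1.53 (s.e. 0.29, limma adjusted p = 0.0356) and the cyclin D2 gene Ccnd2 by 1.7 (s.e. 0.27, limma adjusted p = 0.0264). Keratins among the epithelial markers moved with them: the summed epithelial markers were 4268 and 4019 rpkm in flox/flox and 2731 and 2693 rpkm in +/+ libraries, and Krt8 and Krt19 were called higher, with log2 changes of 0.7 (s.e. 0.12, limma adjusted p = 0.0329) and 0.84 (s.e. 0.17, limma adjusted p = 0.0411), calls that were also lost with weights (limma adjusted p = 0.145 and 0.192).

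Of 20 further YAP/TAZ target genes, 13 passed the filter. In R270H/R270H against +/+ limma called 3 lower and 2 higher, with a median log2 change of -0.87. The angiomotin-like gene Amotl2 was at 8.92 and 9.58 rpkm in +/+, 6.68 and 8.41 rpkm in flox/flox and 4.22 and 4.39 rpkm in R270H/R270H libraries, a log2 change of -0.95 (s.e. 0.14, limma adjusted p = 0.0191). The stress-response gene Gadd45a, which is also a p53 target, changed by -1.15 (s.e. 0.21, limma adjusted p = 0.0305), and the phosphatase gene Ptpn14, whose product restrains YAP, by -1.41 (s.e. 0.3, limma adjusted p = 0.0447). The growth factor gene Tgfb2 went the other way, at 3.8 and 4.02 rpkm in +/+, at the floor in both flox/flox libraries and at 11 and 9.07 rpkm in R270H/R270H libraries. Its log2 change was 1.16 (s.e. 0.14, limma adjusted p = 0.0122), and that of the RNA-binding protein gene Rbms3 was 0.81 (s.e. 0.12, limma adjusted p = 0.0206). Against flox/flox 3 were called lower and 2 higher, with a median log2 change of -0.33. With weights for each genotype the 2 higher ones, Tgfb2 and Rbms3, alone were called. For flox/flox against +/+ the calls were 1 higher, Ankrd1, and 2 lower, Tgfb2 and Rbms3, and with weights limma called 0, with 4 at an unadjusted p under 0.05. In this comparison too most log2 changes were negative, 11 of 13, with a median of -0.61. Lower levels of these targets than in +/+ were thus not particular to R270H/R270H. Ankrd1, a muscle and YAP target gene that is low in these cells, went from 1.65 and 1.35 rpkm in +/+ to 4.63 and 6.59 rpkm in flox/flox libraries (log2 change 1.39, s.e. 0.21, limma adjusted p = 0.0245, and 0.112 with weights) and was at 1.23 and 1.63 rpkm in R270H/R270H libraries. The 13 genes were thus not uniform in direction.

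**Figure D4:**
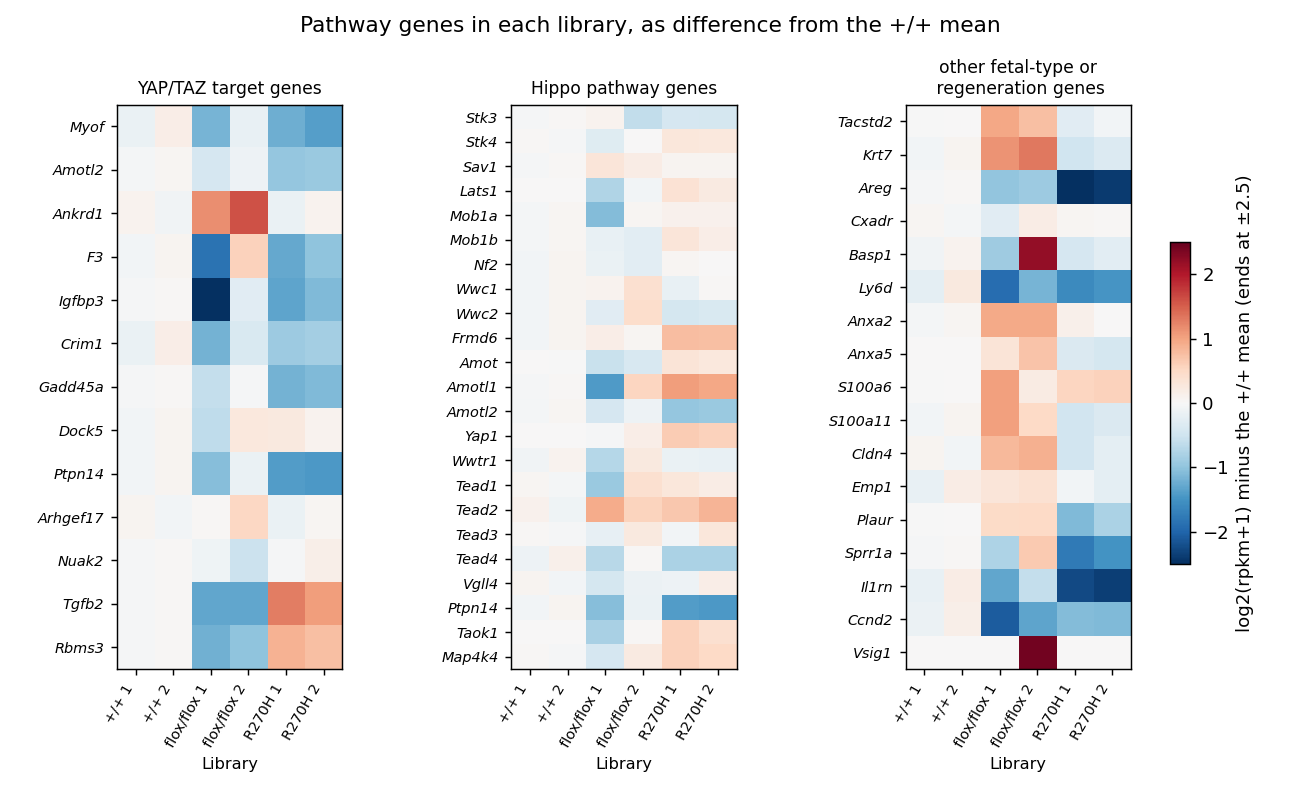
Difference from the Trp53 +/+ mean on the log2(rpkm+1) scale (colour, ends at ±2.5) in the 6 libraries (columns) for the genes of 3 lists that passed the filter (rows), with YAP/TAZ targets at left, Hippo pathway genes in the middle and other fetal-type or regeneration genes at right. Areg and Il1rn are the deepest blue in both R270H columns, and Tgfb2 and Rbms3 are red there and blue in both flox/flox columns.

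The Hippo pathway itself was expressed throughout, with 23 of 25 genes passing the filter. Yap1, which encodes YAP, was at 21.5 and 21.5 rpkm in +/+, 21.1 and 24.1 rpkm in flox/flox and 33.9 and 32.6 rpkm in R270H/R270H libraries. It was thus highest where Ctgf and Cyr61 were lowest, with a log2 change of 0.61 against +/+ (s.e. 0.11, limma adjusted p = 0.0285) and 0.54 against flox/flox (s.e. 0.11, limma adjusted p = 0.0253). In R270H/R270H against +/+ 3 genes of the list were called higher and 2 lower, with a median of 0.11. The others called higher were Frmd6, a FERM protein gene upstream of the kinases (0.76, s.e. 0.11, limma adjusted p = 0.0183), and the DNA-binding partner gene Tead2 (0.76, s.e. 0.17, limma adjusted p = 0.0469). Amotl2 and Ptpn14 belong to this list too and were those called lower. Against flox/flox 5 of 23 were called, 21.7% of the list and a smaller share than over all genes. They were 4 higher, Amot among them (0.77, s.e. 0.1, limma adjusted p = 0.0111), and 1 lower. In flox/flox against +/+ 1 was called lower, Amot (-0.48, s.e. 0.1, limma adjusted p = 0.0463), and 0 higher, with 1 higher at an unadjusted p under 0.05. Weighted by genotype, limma called 0 of the list against flox/flox, with 9 at an unadjusted p under 0.05, and 0 in flox/flox against +/+, with 2. The limma adjusted p against flox/flox was then 0.112 for Yap1 and 0.0567 for Amot. RNA levels do not report where YAP lies in the cell or whether it is phosphorylated.

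Crypt base stem cell genes, the program that the regenerating state replaces, gave 2 higher and 1 lower of 13 in R270H/R270H against +/+, with a median log2 change of -0.04. Olfm4, a secreted glycoprotein gene of crypt base cells, was at the floor in both +/+ libraries, at 1.11 and 3.04 rpkm in flox/flox and at 7.98 and 13.1 rpkm in R270H/R270H libraries. Its log2 change of 2.49 (s.e. 0.37, limma adjusted p = 0.0199) depends on the floor and on the pseudocount. The BMP co-receptor gene Rgmb also rose (0.76, s.e. 0.14, limma adjusted p = 0.0305), and the surface marker gene Prom1 fell by 1.2 on the log2 scale (s.e. 0.22, limma adjusted p = 0.0331). In flox/flox against +/+ 1 was called higher, Rgmb (0.71, s.e. 0.14, limma adjusted p = 0.037), and 2 lower, the Wnt feedback gene Axin2 (-0.64, s.e. 0.11, limma adjusted p = 0.0315) and Tnfrsf19 (-0.85, s.e. 0.16, limma adjusted p = 0.0353). Against flox/flox, R270H/R270H had 4 higher and 1 lower, the stem cell transcription factor gene Ascl2 (-1.72, s.e. 0.22, limma adjusted p = 0.00984). Among the higher ones were Olfm4 (1.95, s.e. 0.37, limma adjusted p = 0.0242), Axin2 (1.08, s.e. 0.11, limma adjusted p = 0.00634) and Tnfrsf19 (1.01, s.e. 0.16, limma adjusted p = 0.0159). Genotype weights left 0 called in flox/flox against +/+, with 6 at an unadjusted p under 0.05. In R270H/R270H against flox/flox they left 2, Axin2 and Tnfrsf19 (limma adjusted p = 0.0379 and 0.0454), and the call of Ascl2 was lost (limma adjusted p = 0.0654).

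Within their gene families, Ly6a and the annexins did not stand alone. Ly6c1, which encodes a related surface protein, was at 49.6 and 61.6 rpkm in +/+, 71.3 and 57.4 rpkm in flox/flox and 9.12 and 10.7 rpkm in R270H/R270H libraries. As for Ly6a, the R270H/R270H libraries were the lowest and the others overlapped, with a log2 change of -2.37 against +/+ (s.e. 0.17, limma adjusted p = 0.00367) and -2.58 against flox/flox (s.e. 0.17, limma adjusted p = 0.00246). The 2 genes are close in sequence, and how reads that fit both were counted is not given in the sources used here. Of 13 Ly6 family genes 6 passed the filter. R270H/R270H against +/+ called 3 lower, namely Ly6a, Ly6c1 and Ly6d, and 1 higher, Lypd6b (1.33, s.e. 0.14, limma adjusted p = 0.00814), which was at 5.46 and 5.23 rpkm in R270H/R270H libraries and at no more than 1.63 rpkm elsewhere. Ly6e, the most abundant of the family in +/+ organoids with 483 and 484 rpkm, was called lower in flox/flox against +/+ (-0.69, s.e. 0.12, limma adjusted p = 0.0295), but not with weights for each genotype (limma adjusted p = 0.112).

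Of 12 annexins 11 passed the filter. In R270H/R270H against +/+ Anxa1 and Anxa3 were called lower and Anxa6 higher, the last from 19.2 and 20.0 rpkm to 52.4 and 47.6 rpkm (1.31, s.e. 0.19, limma adjusted p = 0.0182). In flox/flox against +/+ 3 annexins were called higher, Anxa1, Anxa2 (0.95, s.e. 0.11, limma adjusted p = 0.0135) and Anxa6 (0.97, s.e. 0.19, limma adjusted p = 0.038), and 0 lower, with 1 lower at an unadjusted p under 0.05. Against flox/flox 4 were called lower, Anxa1, Anxa2, Anxa3 and Anxa5, and 0 higher, with 1 higher at an unadjusted p under 0.05. Under genotype weights limma called 0 annexins in flox/flox against +/+, with 6 at an unadjusted p under 0.05, and the limma adjusted p was 0.0821 for Anxa2 and 0.0825 for Anxa6. Against flox/flox the call of Anxa2 was lost in the same way (limma adjusted p = 0.0618). Of the CCN family, Ctgf and Cyr61 alone passed the filter, and Nov, Wisp1 and Wisp3 were at the floor in all 6 libraries.

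Of 12 genes for known receptors and partners of the encoded proteins, 5 were not detected above the floor. The interleukin-33 receptor gene Il1rl1, the formyl peptide receptor genes Fpr1 and Fpr2, the mesothelin partner gene Muc16 and the osteopontin-binding integrin gene Itgb3 were at 1 rpkm in all 6 libraries, and were named after these values had been seen. Of the 5 partner genes that passed the filter, 1 was called higher and 1 lower in R270H/R270H against +/+. Itgb5, an integrin subunit gene, rose from 4.04 and 4.51 rpkm to 15.1 and 16.9 rpkm (1.69, s.e. 0.27, limma adjusted p = 0.0229). Itgb6, its epithelial relative, was at 7.11 and 8.32 rpkm in +/+ and 4.91 and 4.33 rpkm in R270H/R270H libraries (-0.63, s.e. 0.13, limma adjusted p = 0.0431).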

How the data were processed

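With StrandNGS the authors aligned the reads to mm10 and computed rpkm, and the deposited table of rpkm values was used as it stands. Its version, annotation and filters are not given in the sources used here. No value is below 1 rpkm, so lower levels are unknown and ratios against 1 are lower bounds. Read depth was not derived here. RNA was poly(A) selected, the libraries were stranded, and each genotype had 2 mice with organoids prepared independently.

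Genes reaching 4 rpkm in 1 library or more were compared on log2(rpkm+1) with limma 3.58.1 (lmFit, eBayes with trend) in R 4.3.3, for all 6 libraries without a block, in 3 two-sided comparisons with Benjamini-Hochberg adjustment at 0.05. Fold changes of low genes are understated on this scale. Python 3.11.15, pandas 2.3.3 and matplotlib 3.10.9 were used. The code was tested on simulated data. Gene positions and promoters come from RefSeq GRCm38.p6, and Ctgf and Cyr61 were matched by gene identifier.

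All 9 genes are named, and of each list at most the 6 called genes with the largest change in any comparison, plus genes at the floor that define a cell type. The 9 genes and the lists were chosen with earlier results of these data known. The alternatives were pseudocounts of 0.1 and none, 3 other filters, 2 scalings, no trend, weights for each genotype, fits of the 2 genotypes compared, a block on the replicate number, and leaving out each library.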

Additional observations from a re-analysis of the deposited data

How the results depend on the processing

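Over 12 alternatives that kept all libraries, no log2 change of the 9 genes turned sign. Only the pseudocounts and scalings among them could change these estimates, since the rest leave the genotype means of a gene as they are. The counts of 4, 1 and 6 genes called, for R270H/R270H against +/+, flox/flox against +/+ and R270H/R270H against flox/flox in this order, became 1, 0 and 3 with no filter, 8, 0 and 3 with weights for each genotype, and 9, 0 and 3 with only the 2 genotypes compared. Where limma called 0, 3, 3 and 2 genes had an unadjusted p under 0.05. In flox/flox against +/+ 2 were called, Anxa3 being added, with a filter in both libraries of a genotype, with median-of-ratios scaling and with upper-quartile scaling. With each library left out in turn the counts ranged from 0 to 9, from 0 to 7 and from 0 to 9. The log2 change of flox/flox against +/+ then ranged from -0.18 to 0.24 for Ly6a, -1.57 to 1.33 for Clu, -1.65 to 3.6 for Spp1, -1.23 to 0.14 for Il33 and -0.09 to 0.45 for Cyr61, and that of R270H/R270H against flox/flox from -5.2 to 0.05 for Spp1 and -0.35 to 1.02 for Il33. The list counts moved likewise, from 1 to 9 of the YAP/TAZ targets, 1 to 16 of the Hippo genes and 1 to 12 of the other fetal-type genes in R270H/R270H against +/+, and were as low as 0 with a library left out. In flox/flox against +/+ weights left 0 genes called of each of the YAP/TAZ, Hippo, fetal-type, crypt base, annexin and Ly6 lists. Calls over all genes compared moved as well for flox/flox against +/+. Over the alternatives that kept all libraries they ranged from 9 to 495 higher and from 38 to 974 lower, and the 3 other filters among these changed the number of genes compared. The lost calls are therefore not read as a trait of these lists.

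The labels do not say whether same-numbered libraries share a batch, and a batch was not tested. Deviations of replicate 1 from its genotype mean correlated at 0.117 between +/+ and flox/flox. The correlations with R270H/R270H were -0.291 for +/+ and -0.196 for flox/flox. With a replicate block 3, 0 and 6 genes were called, with 3 at an unadjusted p under 0.05 in the second comparison. With the R270H/R270H numbers exchanged, chosen after seeing the data, 4, 1 and 5 were called. The block also left 0 annexins and 0 crypt base genes called in flox/flox against +/+, with 6 and 7 at an unadjusted p under 0.05, and 1 Hippo gene in place of 5 in R270H/R270H against +/+.

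With 2 libraries per genotype the calls rest on a pooled spread, and the median s.d. was 0.046 in +/+, 0.062 in R270H/R270H and 0.247 in flox/flox on the log2 scale. The floor of 1 rpkm limits, among others, Spp1, Tgfb2, Olfm4, Cdh5, Upk1b, Upk3b and Lypd6b. Ankrd1 was above the floor in all libraries but near it in +/+ and R270H/R270H. Differences below 1 rpkm cannot be seen.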
